A study of Homo sapiens with 6 samples.

Results

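Ligands and receptors of the interleukin-1 family were followed in THP-1, a cell line grown from a human monocytic leukaemia, through 10 genes: the agonists IL1A, IL1B, IL18, IL36G and IL36B, the antagonist IL1RN, and the receptor genes IL1R1, IL1R2, IL1RAP and IL1RL1. They were taken by gene symbol from the array's probe table, where 16 of the 31741 probes, and 10 of the 18255 genes, were theirs. Total RNA was measured on 6 single-colour Cy5 arrays in 3 groups of 2. Resting cells received no agent. LPS cells received lipopolysaccharide, the bacterial outer membrane component that TLR4 senses, at 50 ng/ml for 8 h. LC53 plus LPS cells received the compound LC53 at 5 µM 15 min ahead of the same LPS treatment. All cells were held in low-serum medium. No array held cells given LC53 alone, so an effect of LC53 without LPS cannot be told apart from one on the LPS response. Whether the paired arrays were independent cultures is not given in the labels, so the p-values measure the spread between these arrays, which may be technical. The series title names theissenolactone C and TAK-1/IKK signalling, the kinase step between TLR4 and NF-kB.

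Interleukin-1 alpha and beta bind the receptor encoded by IL1R1, which recruits the accessory chain encoded by IL1RAP and signals through MYD88 and IRAK kinases to NF-kB. IL1RN encodes an antagonist that occupies the same receptor without recruiting the accessory chain, and IL1R2 encodes a decoy receptor that binds the cytokine without signalling. Monocytes make interleukin-1 beta as an inactive precursor after TLR stimulation, and caspase-1 cleaves it and the interleukin-18 precursor. The arrays measured the transcripts and neither this cleavage nor secretion.

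The median probe intensity lay between 84.4 and 124 on the 6 arrays. Both ends were LPS arrays, replicate 1 and replicate 2 in that order, and the other arrays lay between 99.2 and 113. Replicate arrays correlated at r = 0.988 to 0.993 across probes, which are not independent replicates. Arrays of different groups correlated at r = 0.970 to 0.981. The highest value of any member was 39650.5, below the highest value of each array, which lay between 59354 and 73104. Of 9 measured monocyte markers 8 were at or above 50 on every array, and CD163 fell below 50 on some. Their levels were not all steady between groups. CSF1R read 1851 to 2651 without LC53 and 891 and 879 with it. CD33 and CD68 were highest at rest, and CD14 and SPI1 were highest with LPS. Neutrophil markers, 3 measured, summed to 3729 to 3935 at rest, 2469 to 2592 with LPS and 2718 to 2761 with LC53 plus LPS. CSF3R, most of that sum, and CXCR2 were lower with LPS. MMP8, below 50 on every array, went from 19.8 and 18.2 at rest to 27.1 and 33.7 with LPS. All 3 measured mast cell markers were below 50 on every array. Across the arrays NK cell markers (3 measured) summed to 2898 to 3724, most of it NKG7. T cell markers (4 measured) summed to 493 to 722, most of it CD3D, and B cell markers (2 measured) to 129 to 252. Fibroblast markers, 5 of 5 measured, summed to 489.9 to 496 at rest, 705 to 927 with LPS and 568 to 598 after LC53 and LPS. Within that list DCN and LUM carried the LPS difference, COL1A2 and COL3A1 stayed below 50 throughout, and the part of these marker lists in the results below was not tested. Summed keratinocyte markers (4 measured) ran from 5111 to 6803 without LC53 and from 8475 to 9501 with it, most of it KRT10, while KRT5 was below 50 on every array. Summed endothelial markers (4 measured) ran from 5545 to 6511 without LC53 and from 3223 to 3319 with it, most of it PECAM1, which monocytes also express. VWF went the other way, at 65.6 to 174 without LC53 and 187 and 205 with it.

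Stretches of 250 bases before the RefSeq start site are shown for IL1A, IL1B and IL1RN, the ligands that passed the test in every comparison. Whether these stretches act on the values was not tested. They run 5′ to 3′ on the gene's strand, and capitals mark letters that match a searched motif.
IL1A, GRCh38.p14 chr2:112784494-112784743, minus strand: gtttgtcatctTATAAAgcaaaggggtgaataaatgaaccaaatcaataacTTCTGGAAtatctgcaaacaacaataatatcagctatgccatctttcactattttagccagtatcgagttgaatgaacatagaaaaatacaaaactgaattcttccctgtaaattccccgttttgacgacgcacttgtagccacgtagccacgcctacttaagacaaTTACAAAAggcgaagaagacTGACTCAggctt
IL1B, GRCh38.p14 chr2:112836780-112837029, minus strand: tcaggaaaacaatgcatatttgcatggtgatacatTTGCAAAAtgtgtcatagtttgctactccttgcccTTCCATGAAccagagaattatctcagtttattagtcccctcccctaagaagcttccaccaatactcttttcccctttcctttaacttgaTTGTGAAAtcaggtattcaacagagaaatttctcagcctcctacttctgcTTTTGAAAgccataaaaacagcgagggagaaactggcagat
IL1RN, GRCh38.p14 chr2:113117721-113117970, plus strand: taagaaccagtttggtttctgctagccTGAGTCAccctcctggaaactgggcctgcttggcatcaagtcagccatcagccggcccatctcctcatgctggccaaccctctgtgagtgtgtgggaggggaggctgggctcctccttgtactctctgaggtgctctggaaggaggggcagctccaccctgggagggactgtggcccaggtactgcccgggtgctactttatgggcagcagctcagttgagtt

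The table held 8 of the 10 genes, all but IL18 and IL36B. Both strands were searched for AP-1 (TGANTCA), CRE (TGACGTCA), C/EBP (TTNNGNAA), GAS (TTCNNNGAA), the TATA element (TATAAA) and the NF-kB consensus, and no matches overlapped within the 3 stretches. AP-1 letters occurred in 6.6% of all 27305 stretches of this length and in those of IL1A, IL1RN and IL1RL1. C/EBP letters occurred in 33.6% of all stretches and in those of IL1A, IL1B, IL1R1 and IL1RL1. The IL1B stretch held C/EBP letters at 3 places and GAS letters at 1, and GAS letters were found in 6.78% of all stretches. The NF-kB consensus matched 7.75% of all stretches and 0 of the 8, CRE 1.77% and 0 of the 8, and TATA letters 11.1% and that of IL1A alone. These matches describe letters in a window and are neither bound sites nor causes.

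Setting LPS against resting cells showed which of these genes the bacterial stimulus changed. LPS raised 3 of 5 agonists, IL1B, IL1A and IL36G, and the antagonist IL1RN, together with the decoy receptor IL1R2, and it lowered the agonist IL18. IL1B, the main secreted agonist of monocytes, rose 213-fold, against 5.66-fold for IL1A and 5.2-fold for IL1RN. In all, 5 of 10 genes rose and 1 fell, where 4.46% and 3.1% of all 18255 genes did (limma, Benjamini-Hochberg adjusted p below 0.05 over 31741 probes). The median log2 difference was 1.13 for the 10 genes and -0.07 for all genes. Arrays of the 2 groups did not overlap for 8 of the 10 genes, which was so for 50.0% of all genes.

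IL1B read an intensity of 168 and 198 at rest, 39650.5 and 37746 with LPS, and 2696 and 2865 with LC53 plus LPS. Its 3 groups were far apart with no overlap, and LC53 plus LPS lay between the other groups. The log2 difference of LPS from resting was 7.73 ± 0.19 (SE; limma adjusted p = 0.00016). IL1A, which encodes interleukin-1 alpha, an agonist that is active as a precursor and can remain in the cell, read 43.6 and 49.4 at rest, 244 and 284 with LPS, and 113 and 119 with LC53 plus LPS. These groups kept the same order without overlap, and the LPS difference was 2.5 ± 0.19 (limma adjusted p = 0.00207), or 1.7 with an offset of 50 added before the log. In bulk RNA a change in the number of expressing cells and one in RNA per cell cannot be told apart.

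IL36G encodes interleukin-36 gamma, an epithelial and myeloid alarm cytokine that uses another binding receptor with the same accessory chain. Its probe was dim, at 10.9 and 11.1 at rest, 33.3 and 38.5 with LPS, and 13.6 and 20.1 with LC53 plus LPS, on arrays whose first quartile lay between 15.6 and 25. Without overlap between LPS and resting arrays, it rose by 1.7 ± 0.25 on the log2 scale (limma adjusted p = 0.016), or by 0.49 with the offset. IL36B, another interleukin-36 agonist, had 2 dim probes. The brighter read 20.8 and 26.2 at rest, 12.5 and 29.8 with LPS, and 25.4 and 33.5 with LC53 plus LPS, and the other lay between 4.96 and 11.5 throughout. Neither passed in any comparison of the main fit, and the 95% interval of the LPS difference of the brighter probe ran from -1.35 to 0.8. After quantile normalization the dimmer probe passed against rest with LPS (limma adjusted p = 0.0429) and with LC53 plus LPS (0.0367). With the offset these differences of the dimmer probe were 0.08 and 0.11 and did not pass.

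IL18, the agonist that drives interferon-gamma production in lymphocytes, was the member that fell. It read 654 and 653 at rest, 312 and 364 with LPS, and 533 and 469.8 with LC53 plus LPS. The LPS arrays were the lowest and did not overlap the others, and the LPS difference was -0.95 ± 0.19 (limma adjusted p = 0.0439).

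IL1RN was measured by 2 probes. The brighter read 2734 and 2839 at rest, 14436 and 14546 with LPS, and 1355 and 1340.1 with LC53 plus LPS. On the other probe the values were 450.2 and 490.1, 2056 and 1801, and 167 and 156 in the same order. Both probes put LPS highest and LC53 plus LPS lowest, with no overlap. With LPS they rose by 2.38 ± 0.17 (limma adjusted p = 0.00171) and 2.03 ± 0.18 (limma adjusted p = 0.00353).

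Among the 4 receptor genes IL1R2 passed with LPS. It read 26.8 and 27.2 at rest, 76 and 75 with LPS, and 28.1 and 33.5 with LC53 plus LPS, a rise of 1.48 ± 0.19 (limma adjusted p = 0.0102), or 0.7 with the offset. The LPS arrays stood above the other 4. IL1R1, the signalling receptor, read 401 and 390.3 at rest, 657 and 701 with LPS, and 889.6 and 973 with LC53 plus LPS. The order was the same on each pair of arrays, yet the LPS difference of 0.78 ± 0.18 did not pass (limma adjusted p = 0.064). It passed after quantile normalization (0.0347), with the offset (0.00821) and without dimmer probes (0.023).

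IL1RAP, the accessory chain of the interleukin-1, 33 and 36 receptors, had 4 probes. The brightest read 439 and 391 at rest, 451 and 648 with LPS, and 519 and 422 with LC53 plus LPS, so that LC53 plus LPS arrays overlapped both other groups. Its LPS difference was 0.38, with a 95% interval from -0.24 to 1, and none of the 4 probes passed in any comparison (limma adjusted p from 0.113 to 0.785). IL1RL1 encodes ST2, the interleukin-33 receptor of mast cells and type 2 lymphocytes. Its brighter probe read 272 and 329 at rest, 160 and 273 with LPS, and 325 and 403 with LC53 plus LPS, and the other probe lay between 3.97 and 6.73. Neither passed, and the LPS difference of the brighter was -0.51 (95% interval -1.27 to 0.25).

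With 1 array left out, 3 of the 6 LPS calls no longer passed in some fits, although their differences moved little, to between -0.96 and -0.84 for IL18, 1.6 and 1.71 for IL36G, and 1.47 and 1.5 for IL1R2. Fits without a resting array called 479 or 539 of all probes, against 2069 with every array. The IL18 call ended without resting replicate 1 (limma adjusted p = 0.338) or 2 (0.316), LPS replicate 1 (0.0706) or either LC53 plus LPS array (0.109), IL36G without resting replicate 1 (0.135) or 2 (0.123) or LPS replicate 2 (0.0511), IL1R2 without resting replicate 1 (0.126) or 2 (0.114), and the dimmer IL1RN probe without resting replicate 1 (0.0543), so 3 of 10 genes remained called without either resting array.

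**Figure D1:**
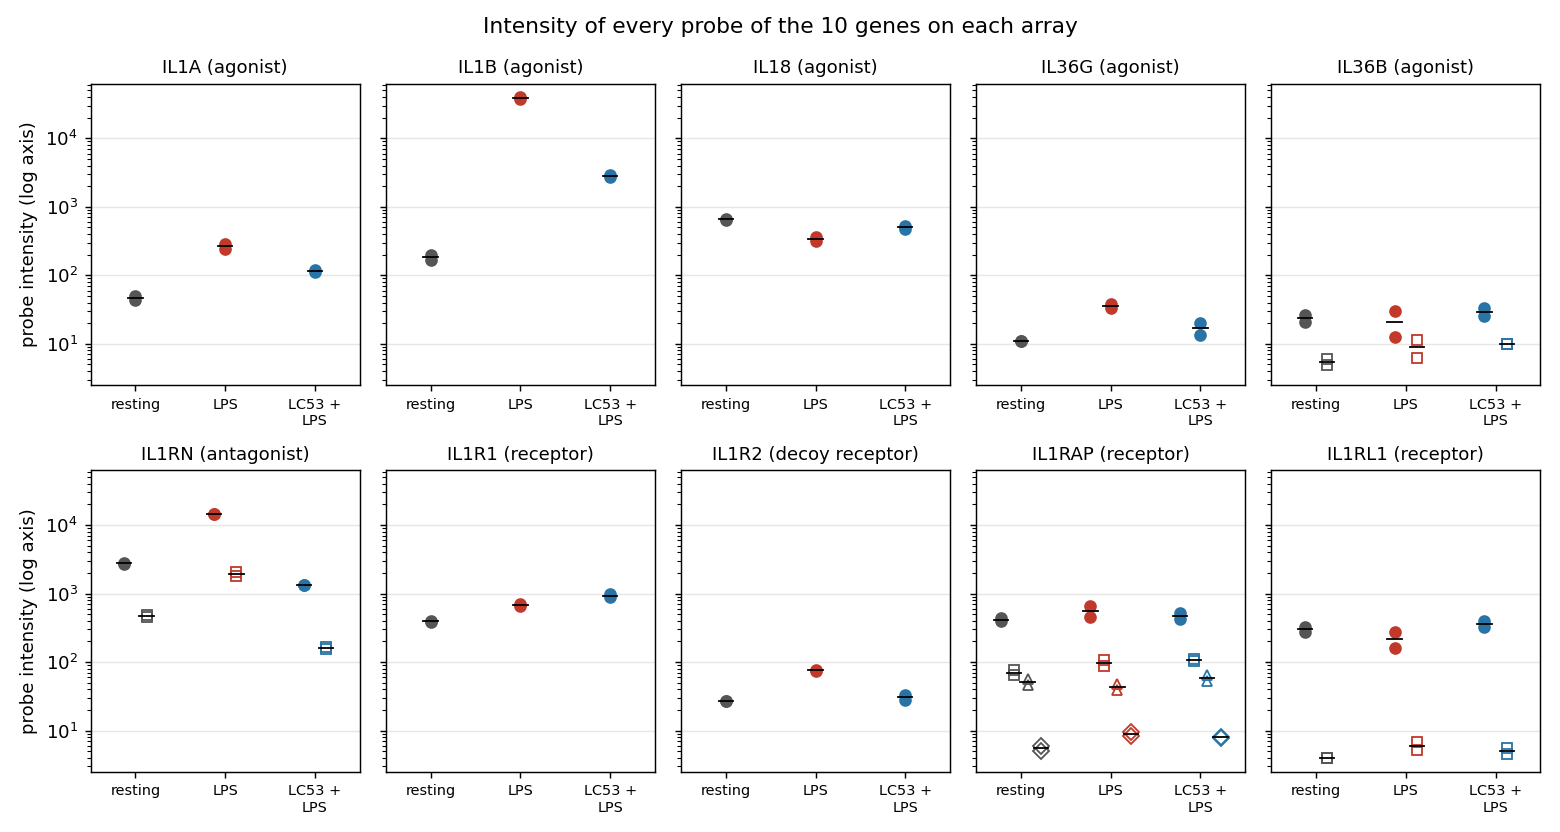
Probe intensity (log axis) of each array in resting, LPS and LC53 plus LPS cells, 1 panel per gene, with filled circles for the brightest probe, open symbols for other probes and short bars for the mean of 2 arrays. IL1B runs from 183 at rest to 38698 with LPS and 2781 with LC53 plus LPS, and both IL1RN probes are lowest with LC53 plus LPS.

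The compound's effect in stimulated cells was read from LC53 plus LPS set against LPS alone. IL1B, IL1RN, IL1R2 and IL1A were lower with LC53, IL1B 13.9-fold and IL1RN 10.8-fold, so that the agonist and its antagonist fell together. By limma 0 members rose. At an unadjusted p below 0.05, 3 members were higher and 5 lower, against 11.5% and 8.51% of all genes. Of the 10 genes 4 fell, where 2.26% of all genes did and 0.882% rose. Arrays did not overlap for 8 of 10 members and 48.2% of all genes, and the median log2 difference was -0.66 for the 10 genes and 0.16 for all genes. The deposited scale was kept, so the differences given here were not adjusted for that shift of all genes. How much of it enters the difference of any 1 member was not tested.

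IL1B fell by 3.8 on the log2 scale, with an SE of 0.19 (limma adjusted p = 0.00218), to 7.19% of its LPS intensity. The IL1RN probes differed by -3.43 ± 0.17 and -3.58 ± 0.18 (limma adjusted p = 0.00218 for each), which left 9.3% and 8.37% of the LPS intensity. IL1A differed by -1.18 ± 0.19 (limma adjusted p = 0.0415), with 44.1% left. The decoy receptor IL1R2 differed by -1.3 ± 0.19 (limma adjusted p = 0.0294), or -0.64 with the offset, with 40.8% left.

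The other 6 genes did not pass. IL36G, at 46.9% of its LPS intensity, differed by -1.12 ± 0.25 (limma adjusted p = 0.0891) and passed after quantile normalization (0.0294) and median centring (0.0261). With the offset the difference of this dim probe was -0.36 and did not pass (limma adjusted p = 0.0757). IL18 was higher with LC53 by 0.57 ± 0.19 (limma adjusted p = 0.205, 95% interval 0.1 to 1.04) and passed after quantile normalization (0.0473). For IL1R1 the difference was 0.45 ± 0.18 (limma adjusted p = 0.255), which passed with the offset (0.0474). The brightest probes of IL1RL1, IL36B and IL1RAP gave 0.79 (95% interval 0.03 to 1.55), 0.59 (-0.48 to 1.67) and -0.21 (-0.83 to 0.41).

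Calls of IL1B and both IL1RN probes held under each alternative run. Those of IL1A and IL1R2 ended without either resting array (limma adjusted p = 0.153 and 0.123), LPS replicate 1 (0.0605 and 0.0672), the first LC53 plus LPS array (0.246 and 0.207) or the second (0.251 and 0.157), which left 2 of 10 genes. Their differences in those fits lay between -1.29 and -1.14 for IL1A and between -1.43 and -1.17 for IL1R2.

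**Figure D2:**
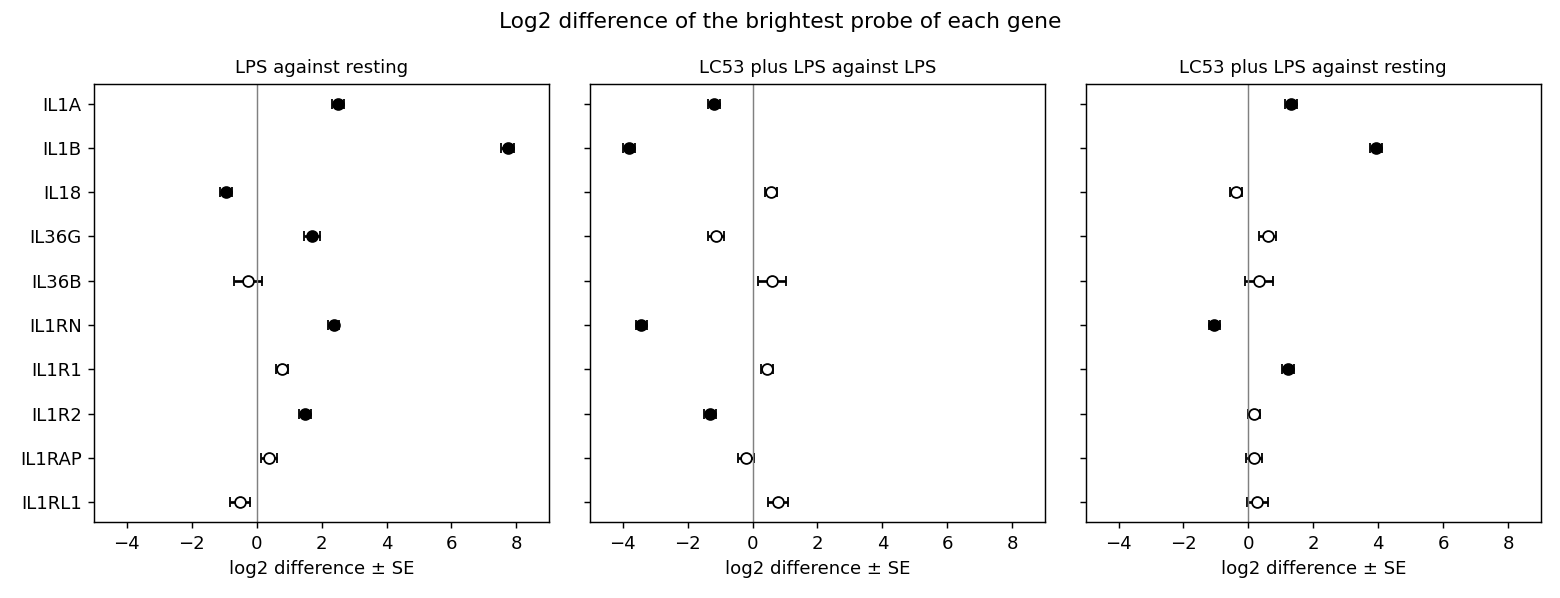
Log2 difference ± SE of the brightest probe of each gene in the 3 comparisons, with filled points for adjusted p below 0.05. IL1B and IL1RN lie on the same side of 0 in the left and middle panels, and on opposite sides in the right panel.

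LC53 plus LPS against resting cells showed which members stayed away from the resting level when the compound was given. IL1B and IL1A were still above rest, by 15.3-fold and 2.5-fold, while the antagonist IL1RN was below rest, 2.07-fold on its brighter probe and 2.91-fold on the other. IL1R1 was above rest by 2.35-fold. In all 3 genes were higher and 1 lower, against 2.03% and 1.51% of all genes, with a median log2 difference of 0.3 for the 10 genes and 0.1 for all genes. Arrays did not overlap for 7 of 10 members and 59.9% of all genes.

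IL1B differed from rest by 3.93 ± 0.19 (limma adjusted p = 0.00149) and IL1A by 1.32 ± 0.19 (0.0289), or 0.79 with the offset. The IL1RN probes differed by -1.05 ± 0.17 (limma adjusted p = 0.0397) and -1.54 ± 0.18 (0.0176), and neither LC53 plus LPS array reached a resting array on either probe. IL1R1 differed by 1.23 ± 0.18 (limma adjusted p = 0.0285), with both LC53 plus LPS arrays the highest of the 6. For IL1R2 the difference was 0.18, with a 95% interval from -0.28 to 0.64, and for IL18 it was -0.39 (-0.85 to 0.08). IL36G gave 0.59 (-0.02 to 1.19), and the brightest probes of IL36B, IL1RAP and IL1RL1 gave 0.32, 0.17 and 0.28, none of which passed.

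Only the IL1B call held without each array in turn. The others ended without resting replicate 1 or 2, at limma adjusted p of 0.309 and 0.226 for IL1A, 0.367 and 0.378 for the brighter and 0.182 and 0.199 for the dimmer IL1RN probe, and 0.294 and 0.287 for IL1R1. Without LC53 plus LPS replicate 1 or 2 they ended at 0.186 and 0.201 for IL1A, 0.254 and 0.252 for the brighter and 0.133 and 0.141 for the dimmer IL1RN probe, and 0.178 and 0.212 for IL1R1, so that 1 of 10 genes remained called. The differences in those fits stayed between 1.23 and 1.41 for IL1A, -1.07 and -1.02 and (dimmer probe) -1.6 and -1.48 for IL1RN, and 1.17 and 1.3 for IL1R1.

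Agonist and antagonist were also compared on the same array, where a scaling of the array cancels. The log2 ratio of IL1B to IL1RN rose by 5.35 from resting to LPS cells, or 40.9-fold, with SDs of 0.13 and 0.06 in the groups (n = 2 each). From LPS to LC53 plus LPS it fell by 0.37, or 1.29-fold, with SDs of 0.06 and 0.07, so it stayed 31.6-fold above rest. With the dimmer IL1RN probe these changes were 5.7, -0.22 and, against rest, 5.47. In each comparison the arrays of the 2 groups did not overlap, and the exact 2-sided permutation p was 0.333, the smallest that 2 arrays against 2 allow. The ratio thus cannot pass a threshold of 0.05 in this design, and the values describe these arrays.

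A further 4 ratios were chosen after the data were seen and are given as descriptions. IL1A to IL1RN changed by 0.12 from rest to LPS, or -0.66 with the offset, and rose by 2.25 from LPS to LC53 plus LPS, to 2.37 above rest. IL18 to IL1RN fell by 3.33 with LPS and rose by 3.99 with LC53, ending 0.66 above rest. The products of this pair bind different receptors, so their ratio is not a balance of an agonist and its antagonist. Between the agonists, IL1B to IL1A rose by 5.23 with LPS and fell by 2.62 with LC53. Signalling over decoy receptor, IL1R1 to IL1R2, fell by 0.7 with LPS, or changed by 0.01 with the offset, and rose by 1.76 with LC53, or 1.06 with the offset, to 1.05 above rest. Relative to IL1RN, both IL1A and IL18 were thus higher on the LC53 plus LPS arrays than on the LPS arrays, while IL1B was lower.

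**Figure D3:**
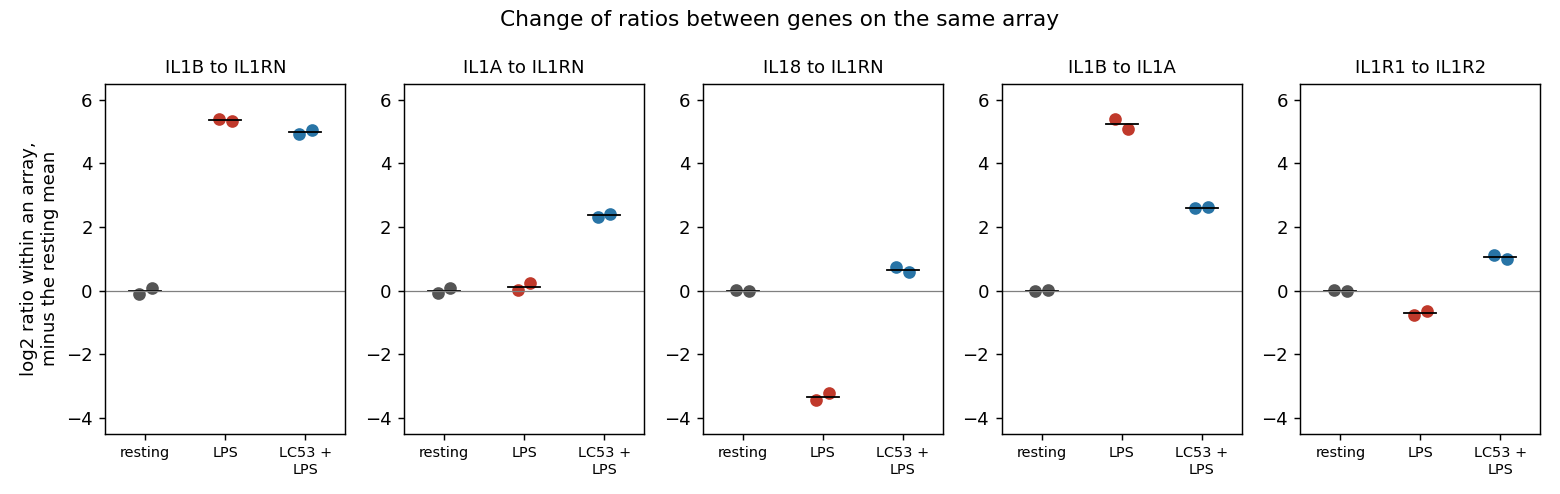
Log2 ratio of gene pairs within each array, minus the mean of the 2 resting arrays, with 1 point per array and a bar for the group mean. IL1B to IL1RN lies 5.35 above rest with LPS and 4.98 with LC53 plus LPS, and IL1A to IL1RN lies 0.12 and 2.37 above.

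Genes with the most similar profile to IL1B and IL1RN were named by the smallest Euclidean distance of centred log2 values over the 6 arrays, among 12737 other genes with a mean intensity of at least 50. The points share 3 treatments and the same arrays, so the distances are descriptions. Nearest to IL1B were CXCL10, an interferon-induced chemokine (distance 0.25), the monocyte chemoattractant CCL2 (1.23) and the survival factor BCL2A1 (1.54). CXCL10 differed by 7.73 with LPS, -3.61 between LC53 plus LPS and LPS, and 4.11 between LC53 plus LPS and rest. Nearest to IL1RN were CLEC10A, a C-type lectin of myeloid cells (0.43), the ABC transporter gene ABCA6 (0.53) and the adaptor gene LIMS2 (0.61). CLEC10A read 99.2 and 89.8 at rest, 400 and 487.5 with LPS, and 37.1 and 34.6 with LC53 plus LPS. Against rest these neighbours, chosen for their likeness to IL1RN, differed with LC53 plus LPS by -1.4 for CLEC10A (limma adjusted p = 0.0274), -0.58 for ABCA6 (0.189) and -0.56 for LIMS2 (0.27), of which the last pair did not pass.

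Of 12 other genes of the family, all measured, 3 rose with LPS and 1 fell, and 3 fell with LC53 (medians 0.18 and 0.25), where 4.46% and 3.1% of all genes rose and fell with LPS and 2.26% fell with LC53. Both chains of the interleukin-18 receptor were among them. IL18RAP, its accessory chain, read 123 and 160.4 at rest, 2741 and 2714 with LPS, and 321 and 499 with LC53 plus LPS. The LPS arrays stood far above the rest, with differences of 4.28 ± 0.28 for LPS (limma adjusted p = 0.00123) and -2.77 ± 0.28 for LC53 (0.0117). IL18R1, the binding chain, read 3.97 and 8.07 at rest, 293 and 436 with LPS, and 39.9 and 21.2 with LC53 plus LPS, differences of 5.98 and -3.62, or 2.87 and -2.35 with the offset (limma adjusted p = 0.00232 and 0.0226). With LPS these receptor transcripts of interleukin-18 rose while IL18 fell. The IL18 call did not hold with a replicate block (limma adjusted p = 0.0773) or with only the compared groups (0.109).

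IL33, the alarm cytokine that binds ST2, read 11.9 and 11.1 at rest, 74 and 92.3 with LPS, and 12.7 and 16.7 with LC53 plus LPS. It differed by 2.85 and -2.5, or 1.11 and -1.04 with the offset (limma adjusted p = 0.0024 and 0.00862). SIGIRR, an inhibitory receptor of the family that was named after its values were seen, fell with LPS from 749.7 and 925 to 239 and 257 (-1.75 ± 0.22, limma adjusted p = 0.0101). The LC53 calls ended without LC53 plus LPS replicate 1 for IL18RAP (0.0606), IL18R1 (0.0653) and IL33 (0.0653), without replicate 2 for IL18R1 (0.125) and IL33 (0.0539), and without LPS replicate 1 for IL18RAP (0.0575) and IL18R1 (0.0757) or LPS replicate 2 for IL18R1 (0.0516). Against rest, IL18RAP (1.51, limma adjusted p = 0.0556) and IL18R1 (2.36, 0.0676) did not pass with LC53 plus LPS. Both passed after quantile normalization (0.0332 and 0.0357), median centring (0.0281 and 0.015) or without dimmer probes (0.0155 and 0.0199). With the offset IL18RAP passed (1.24, limma adjusted p = 0.0364), while the difference of IL18R1, dim at rest, was 0.51 and did not pass (0.259).

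In the list of 16 genes of IL-1 receptor signalling, 15 were measured, 3 rose with LPS (4.46% of all genes did) and 1 rose further with LC53 (0.882% did), with medians of 0.24 and 0.13. IRAK2, a kinase recruited to MYD88, read 184 and 199.7 at rest, 1410.4 and 1988 with LPS, and 1252 and 1163 with LC53 plus LPS. PELI1, a ubiquitin ligase of the IRAK complex, read 356 and 367 at rest, 1599 and 1922 with LPS, and 1493 and 1549.9 with LC53 plus LPS. Both rose with LPS (3.13 and 2.28, limma adjusted p = 0.00184 and 0.00258) and did not pass between LC53 plus LPS and LPS (-0.47 ± 0.23 and -0.2 ± 0.19, limma adjusted p = 0.335 and 0.584). SQSTM1, the p62 scaffold of TRAF6 signalling and autophagy, read 190.4 and 216 at rest, 695 and 868 with LPS, and 3461 and 2906 with LC53 plus LPS. It differed by 1.94 with LPS (limma adjusted p = 0.00695) and by 2.03 with LC53 (0.013). Against rest, IRAK2, PELI1 and SQSTM1 were higher with LC53 plus LPS (2.65, 2.07 and 3.97, limma adjusted p = 0.00703, 0.00801 and 0.00184), and removing any resting or LC53 plus LPS array ended the calls of IRAK2 and PELI1 (0.0603 to 0.109). For SQSTM1 the LPS call ended without resting replicate 1 (0.0826) or 2 (0.0594), and the LC53 call without LC53 plus LPS replicate 1 (0.0979) or 2 (0.0906).

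Of 20 genes of cytokine processing and release, 5 rose and 1 fell with LPS, and 3 fell with LC53 (medians 0.39 and -0.29). Among all genes 4.46% rose and 3.1% fell with LPS, and 2.26% fell with LC53, so the single lower gene is near the background. NINJ1, which acts in plasma membrane rupture, rose from 1083 and 1143 to 7888 and 10247 with LPS (3.01 ± 0.21, limma adjusted p = 0.0015) and read 6780.2 and 6234 with LC53 plus LPS. The inflammatory caspase gene CASP5 read 40.7 and 50.4 at rest, 207 and 256 with LPS, and 69.8 and 71.4 with LC53 plus LPS, and the DNA sensor gene AIM2 read 68.4 and 67.6, 395 and 395, and 57.1 and 114. Both rose with LPS (2.35, or 1.56 with the offset, and 2.54, limma adjusted p = 0.00353 and 0.0124) and were lower with LC53 (-1.71 and -2.29, limma adjusted p = 0.0208 and 0.0326).

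CTSG, a neutrophil serine protease gene, was dim throughout, at 2.97 and 3.03 at rest, 25 and 28.8 with LPS, and 4.53 and 5.58 with LC53 plus LPS, and passed in both comparisons (3.16 and -2.42, or 0.54 and -0.48 with the offset, limma adjusted p = 0.00115 and 0.00654). P2RX7 and CAPN1, named after their values were seen, rose by 1.98 and fell by 1.03 with LPS (limma adjusted p = 0.00412 and 0.0295). Between LC53 plus LPS and LPS they differed by -1.0 and -0.03, and neither passed (limma adjusted p = 0.0601 and 0.939). CASP1, named likewise because it cleaves the interleukin-1 beta precursor, read 2143 and 3694 at rest, 4469.7 and 5144 with LPS, and 2185 and 2663 with LC53 plus LPS, and did not pass (0.77 and -0.99, limma adjusted p = 0.243 and 0.178).

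The AIM2 difference with LPS was 2.53 to 2.55 with any single array of these 2 groups removed, but no longer passed (limma adjusted p = 0.0868 and 0.0853 for the resting arrays, 0.0586 and 0.0513 for the LPS arrays). Its LC53 call ended without either resting array (0.0796), LPS replicate 1 (0.104) or 2 (0.0545), or LC53 plus LPS replicate 1 (0.0874). For CASP5 the LC53 call ended without either resting array (0.0649) or LC53 plus LPS replicate 1 (0.138) or 2 (0.149), and for CTSG without LC53 plus LPS replicate 1 (0.0599) or 2 (0.0539).

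**Figure D4:**
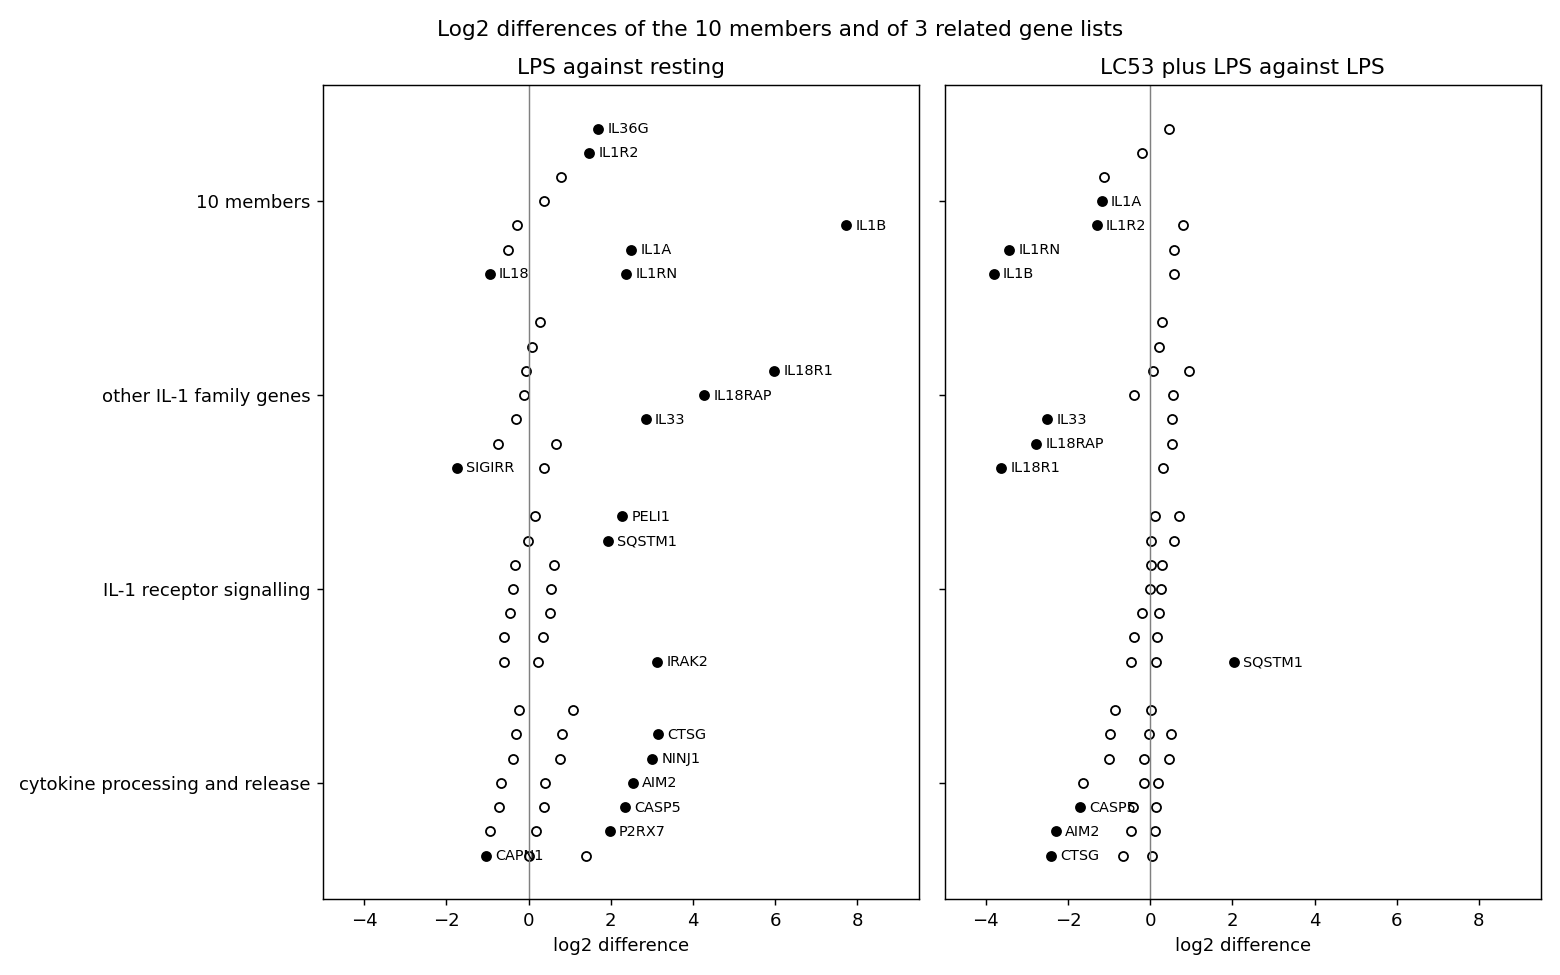
Log2 differences of the 10 members and of the measured genes of 3 related lists, left for the LPS effect and right for LC53 plus LPS against LPS, 1 point per gene, filled and named where adjusted p was below 0.05. Vertical position within a row only separates points. IL1B at 7.73, IL18R1 at 5.98 and IL18RAP at 4.28 lie farthest to the right with LPS, and SQSTM1 at 2.03 is the named gene right of 0 with LC53.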

How the data were processed

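The deposited values were linear probe intensities of 31741 probes on 6 single-colour Cy5 arrays, per the labels' protocols for the dye. The sources used here do not give the scanner, background correction or scaling. The authors' intensities were used as deposited, so a common scale for the 3 groups is assumed. The number of arrays, 2 per group, limits precision.

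A floor of 1 was applied ahead of the log2 transform. Probes were named through the platform table and RefSeq (GRCh38.p14 for promoters): 24658 had 1 symbol, 1002 several and 6081 none. A gene was represented by its probe with the highest mean intensity. limma 3.58.1 in R 4.3.3 fitted 1 mean per group over all 6 arrays, with 2-sided moderated tests adjusted by Benjamini-Hochberg over all probes and called below 0.05. Intervals are 95% from that fit. The fit was tested on simulated data. Ratios used an exact permutation test over arrays (scipy 1.17.1).

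Members and lists were chosen with earlier results of these data known. All members were named, with up to 3 called genes a list with the largest differences in the LPS and LC53 comparisons, and the 3 nearest profiles to IL1B and IL1RN. Alternatives were quantile normalization, median centring, an offset of 50, a minimum group mean of 50, each array left out, a replicate block, only the compared groups, and the mean over a gene's probes.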

Additional observations from a re-analysis of the deposited data

How the results depend on the processing

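Of 561 values for member probes under the alternatives, 502 kept direction and side of the threshold, 46 lost the call, 9 gained it and 4 changed sign without passing. Those 4 were IL36B at 0.35 for LPS against resting and -0.03 and -0.21 (dimmer probe) for LC53 plus LPS against LPS without LPS replicate 1 (-0.9, 1.22 and 0.68 without replicate 2), and IL1RAP at 0.05 without LPS replicate 2 (-0.47 without replicate 1). AIM2 against rest was -0.25 without LC53 plus LPS replicate 2 and 0.74 without replicate 1. With the offset the IL1A to IL1RN ratio (-0.66) and the IL1R1 to IL1R2 ratio (0.01) changed sign for LPS.

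Member genes called without 1 array numbered 3 to 5 for LPS against resting (6 with all arrays), 2 to 4 for LC53 plus LPS against LPS (4) and 1 to 4 for LC53 plus LPS against resting (4). With only the compared groups, 2 were called for LC53 plus LPS against LPS. The IL1B to IL1RN change without 1 array was 5.26 to 5.44, -0.42 to -0.32 and 4.89 to 5.07 in that order of comparisons. With the offset it was 5.02 for LPS and 4.63 against rest, and with the dimmer IL1RN probe 5.7, -0.22 and 5.47.

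Probes called in all numbered 2069, 834 and 941 in the 3 comparisons (61.7%, 26.1% and 59.2% of them higher). They were 5157, 3755 and 3494 after quantile normalization (49.5%, 43.9% and 43.5% higher), 3802, 2416 and 2440 after median centring (60.4%, 27.6% and 44.1%), 3494, 2352 and 2197 with the offset, 3207, 1912 and 1947 without dimmer probes, 1200, 305 and 1555 with only the compared groups, and 479 to 2579, 91 to 2318 and 75 to 1555 without 1 array. Without LPS replicate 2, 38.0% of those for LPS against resting and 73.1% of those for LC53 plus LPS against LPS were higher. The cause of these shifts was not tested.

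With replicate number as a block, 389 probes and 2 members were called for LC53 plus LPS against LPS and 481 probes and 1 member for LC53 plus LPS against resting, against 1492 probes and 5 members for LPS against resting. Deviations of same-numbered arrays correlated at 0.058 (resting and LPS), 0.201 (resting and LC53 plus LPS) and -0.0769 (LPS and LC53 plus LPS). With 2 arrays per group these values cannot show whether same-numbered arrays shared a culture or batch. The main fit did not pair them.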
